A study of Homo sapiens with 12 samples.

Results

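The genes described here encode the protein subunits of the oxidative phosphorylation system. They are the protein-coding genes whose symbols begin with NDUFA, NDUFB, NDUFC, NDUFS, NDUFV, SDHA to SDHD, UQCR, COX4 to COX8 or ATP5, with CYC1 and CYCS, and the 13 protein genes of the mitochondrial DNA. Assembly factors were left out. The rule gave 106 of the 58347 genes counted: 91 nuclear genes, 13 mitochondrial genes and 2 read-through genes that carry a second symbol. All 13 mitochondrial genes and 83 of the 91 nuclear genes had enough counts to be tested, and neither read-through gene did. Members were chosen by symbol and not by a measured value, although earlier results of these data were known. By its prefix the rule also took in ATP5IF1, an inhibitor of ATP synthase, and ATP5S, an accessory factor.

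The RNA came from A375, a human melanoma cell line in long use that carries a mutated BRAF kinase. Vemurafenib inhibits that kinase, and tretinoin (all-trans retinoic acid) activates the retinoic acid receptors. Cells were exposed for 8 h to DMSO (the vehicle), tretinoin, vemurafenib, or vemurafenib and tretinoin together (the combination), with 3 replicates in each group and a dose of 5 µM listed for every group. The study asked which genes respond to the combination compared with vehicle and with each drug alone. Total counts ranged from 13510235 to 21534377 fragments per sample. Nothing in the labels says that the replicates were separate cultures beyond treatment in triplicate, so the p-values measure the spread between these samples.

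Each drug moved at least 1 gene it is known to act on. DUSP6, a phosphatase induced by ERK signalling, fell by 6.07 on the log2 scale with vemurafenib, and DHRS3, a retinoid-induced reductase, rose by 2.91 with tretinoin. Of 8 drug response genes followed, which held further targets of either drug, 2 rose and 5 fell with vemurafenib. With tretinoin DHRS3 was the only 1 of the 8 to pass the threshold, so no other retinoid target on the list did. Over all genes 26.4% rose and 26.3% fell with vemurafenib, and 3.48% and 2.2% with tretinoin. Of 10 melanoma and neural crest markers, AXL, NGFR, MITF and S100B were detected, and PMEL and S100A1 had at most 25 and 56 counts in a sample. SOX10 had no count in any sample, and TYR, DCT and MLANA had at most 19 counts in a sample. Fragments over exons of 2 genes were not counted, and overlap with other genes was not examined for these markers. Low or absent counts therefore do not show that the RNA was absent. Of the 6 markers tested, 1 rose and 2 fell with vemurafenib, the same with the combination, and none passed with tretinoin. The summed level of the 10, scaled to library size, was 428.2 to 517.9 with DMSO and 448.5 to 551.3 with tretinoin. It was 374 to 392.9 with vemurafenib and 350.9 to 383.3 with the combination. Tretinoin replicate 1 stood apart from its group: the chi-square per degree of freedom between replicates was 20.06 and 22.96 for pairs with this library and 2.62 for the other pair. Combination replicate 1 also stood somewhat apart, at 9.17 and 8.2 against 4.22. Results that rest on these libraries are given with and without them.

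Oxidative phosphorylation makes ATP from the energy of electrons passed to oxygen. Complexes I and II pass electrons to ubiquinone, complex III passes them on to cytochrome c, and complex IV passes them to oxygen. The protons that complexes I, III and IV pump across the inner membrane drive complex V, the ATP synthase. Most subunits are made from nuclear genes, imported and assembled with a small set of core subunits made inside the mitochondrion. Complex II is entirely nuclear-encoded. Mitochondrial DNA is transcribed from both strands into long RNAs, which are cut apart at the transfer RNAs that lie between many of the genes. Most of the resulting messages are then polyadenylated, so poly(A) selection captures those. In melanoma, oxidative metabolism is known to respond to inhibition of the BRAF pathway, in part through MITF and the coactivator encoded by PPARGC1A.

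Transcripts of the mitochondrial genome were higher in every treated group, while most nuclear subunit genes moved little. The 13 mitochondrial genes took 0.473%, 0.378% and 0.452% of all counts in the DMSO samples. Their share was 1.12%, 0.692% and 0.731% with tretinoin, and 0.821%, 0.801% and 0.814% with vemurafenib. With the combination it was 0.865%, 1.45% and 1.34%. No treated sample overlapped the DMSO samples. The vemurafenib samples lay within a narrow band, whereas tretinoin replicate 1 was above and combination replicate 1 below the rest of its group. As group means the share was 0.434% ± 0.0501 (SD, n = 3) with DMSO, 0.849% ± 0.238 with tretinoin, 0.812% ± 0.0102 with vemurafenib and 1.22% ± 0.313 with the combination. The 91 nuclear genes took between 0.945% and 1.21% of counts in all 12 samples. Shares are relative to all RNA counted, and in bulk RNA fewer cells of a kind and less RNA per cell cannot be told apart.

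**Figure D1:**
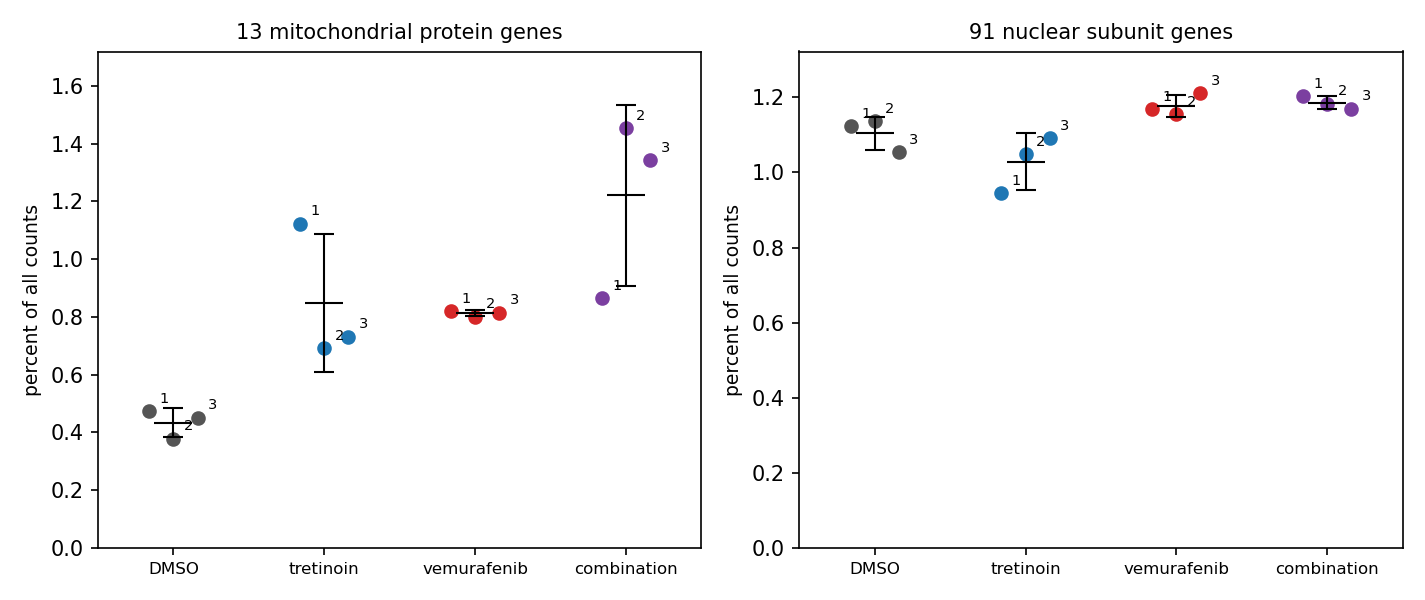
Percent of all counts (vertical axes, from 0) on the 13 mitochondrial genes (left) and the 91 nuclear genes (right) in each sample, numbered by replicate, with the mean and SD of each group of 3 in black. The mitochondrial share is above 0.69% in every treated sample and below 0.48% in every DMSO sample, while the nuclear share stays between 0.945% and 1.21%.

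MT-CO1, the catalytic subunit of complex IV, had the most counts among the mitochondrial genes. Its normalised count (CPM, the count scaled to library size by TMM) was 1190.2, 1089.8 and 1155 with DMSO and 2019, 2004 and 2145 with vemurafenib. It was 2675, 1793 and 1835 with tretinoin and 2541, 3696 and 3515 with the combination. All 9 treated samples were above all DMSO samples, and the combination samples were the highest except that combination replicate 1 lay below tretinoin replicate 1. MT-CYB, the only mitochondrial subunit of complex III, counted 285, 204 and 291 with DMSO, 713, 437 and 465 with tretinoin, 468, 414 and 433 with vemurafenib, and 417, 852 and 798 with the combination. Here combination replicate 1 lay among the vemurafenib samples. MT-ND3, a small membrane subunit of complex I, changed least, with 129, 141 and 130.4 in DMSO, 238, 156 and 182 in tretinoin, 184, 179 and 176 in vemurafenib, and 189, 288 and 282 in the combination. Even for this gene no treated sample overlapped DMSO.

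With vemurafenib relative to DMSO all 13 mitochondrial genes rose in edgeR's quasi-likelihood test at an adjusted p below 0.05 (Benjamini-Hochberg over 16740 genes), against 26.4% of all genes tested that rose and 26.3% that fell. The log2 fold changes ran from 0.43 (MT-ND3) to 0.85 (MT-CO2), with a median of 0.60, where the median of all genes was 0.02. MT-CO1 rose by 0.84 ± 0.14 (SE, adjusted p 7.05e-05 by edgeR), and MT-CO2, which carries the copper site that accepts electrons from cytochrome c, by 0.85 ± 0.16 (adjusted p 0.000187). Among the complex I subunits MT-ND4 rose most, by 0.82 ± 0.18. Without DMSO replicate 2, the library with the lowest mitochondrial share, 11 of the 13 passed the threshold, and MT-ND1 and MT-ND2 did not (adjusted p 0.0815 and 0.11). MT-ND2 also missed it without vemurafenib replicate 1 or 3, and MT-ND3 without DMSO replicate 1 or 3 (adjusted p 0.0514 to 0.0753 over these). DESeq2 called 11.

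The combination raised all 13 relative to DMSO, against 27.1% of all genes that rose and 26.5% that fell, with log2 fold changes of 0.92 (MT-ND3) to 1.52 (MT-ND4) and a median of 1.24. MT-ND4, MT-CO2 and MT-CO1 led, at 1.52 ± 0.19, 1.52 ± 0.16 and 1.51 ± 0.14 (SE), which is a 2.84-fold to 2.87-fold higher normalised count. MT-ATP6, the proton channel subunit of ATP synthase, rose by 1.30 ± 0.20 (adjusted p 2.7e-05 by edgeR). The 13 calls were unchanged when any single library of the 2 groups was left out. With combination replicate 1 left out the median was 1.42.

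Tretinoin alone also raised all 13, where only 3.48% of all genes rose and 2.2% fell. The log2 fold changes ran from 0.52 (MT-ND3) to 1.05 (MT-CYB), with a median of 0.88. MT-CYB rose by 1.05 ± 0.21 (SE, adjusted p 0.00716 by edgeR) and MT-CO1 by 0.88 ± 0.14 (adjusted p 0.000928). The count depended on single libraries. Without tretinoin replicate 1 the median fold change was 0.66, and MT-ND3 and MT-ATP8 missed the threshold, at adjusted p 0.0834 and 0.057. Without DMSO replicate 2, 6 of the 13 passed. With both tretinoin replicate 1 and combination replicate 1 left out of the fit, all 13 passed.

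**Figure D2:**
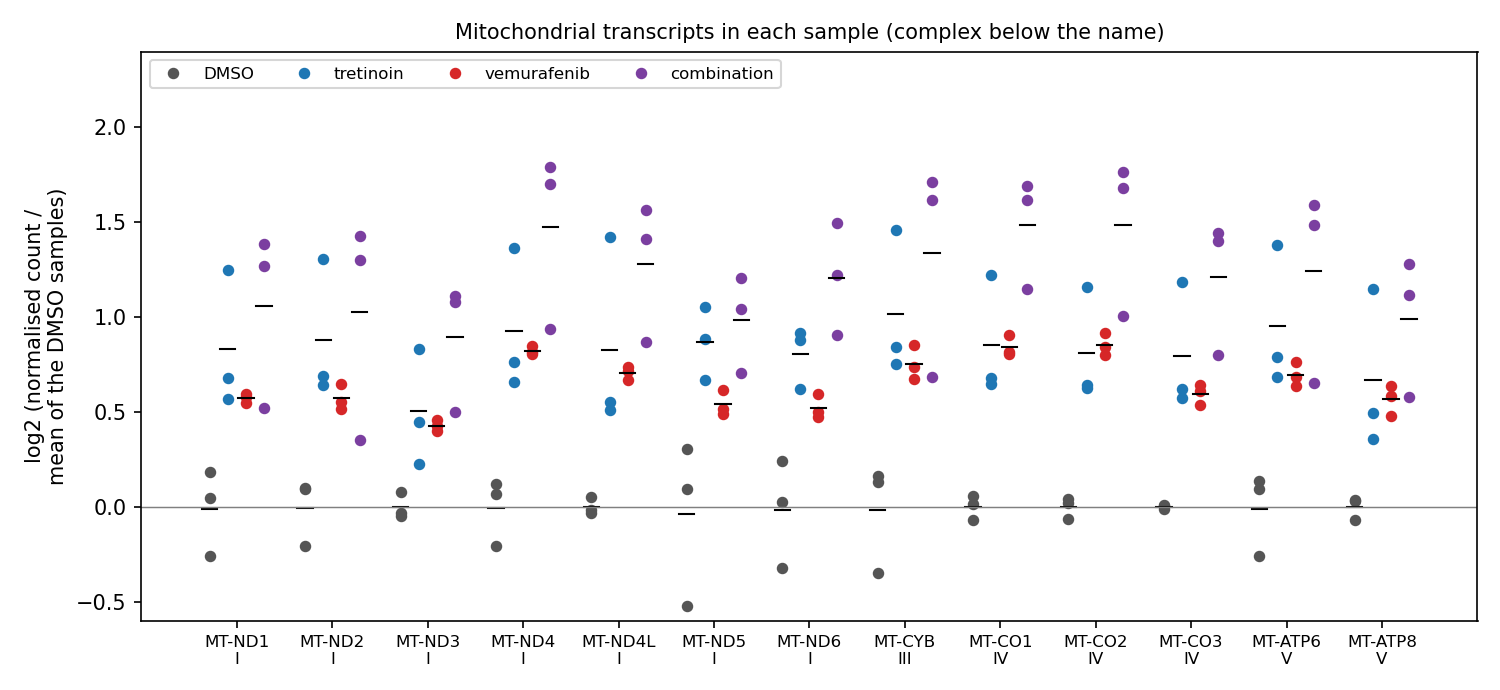
Each of the 13 mitochondrial genes on the horizontal axis (its complex below the name) with the log2 ratio of each sample's normalised count to the mean of the 3 DMSO samples on the vertical axis. Points are samples, coloured by group, and black bars are means of the 3 log2 ratios; all treated points lie above all DMSO points of the same gene, and 1 tretinoin and 1 combination sample stand apart from their groups in most genes.

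Adding tretinoin to vemurafenib raised 5 of the 13 mitochondrial genes relative to vemurafenib alone, where 2.27% of all genes rose and 2.2% fell. They were MT-ND4, MT-ND6, MT-CO1, MT-CO2 and MT-CO3, with log2 fold changes of 0.65 to 0.71. MT-ND6 had the smallest p: its normalised counts were 78.9, 80.5 and 86.0 with vemurafenib and 107, 160.4 and 133 with the combination, a log2 difference of 0.71 ± 0.13 (SE, adjusted p 0.00295 by edgeR). Counting ignored the strand, so the counts of MT-ND6 may include RNA of the other strand. The other 8 had log2 fold changes of 0.46 to 0.65 and missed the threshold. This comparison turned on combination replicate 1: 12 genes passed without it, but 1 passed without combination replicate 2, and 2 passed without combination replicate 3, without vemurafenib replicate 1 or without vemurafenib replicate 2. The median of the 13 was 0.60, and 0.81 without combination replicate 1.

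Relative to tretinoin alone, the combination raised 6 of the 13 (MT-ND3, MT-ND4, MT-ND6, MT-CO1, MT-CO2 and MT-CO3), where 24.1% of all genes rose and 25% fell. MT-CO2 rose by 0.69 ± 0.15 (SE, adjusted p 0.00126 by edgeR). In none of the 13 were the 2 groups of samples free of overlap. Tretinoin replicate 1 lay above the lowest combination sample in all but MT-ND6, where tretinoin replicate 3 did. Without tretinoin replicate 1, or without combination replicate 1, 12 of the 13 passed. Without tretinoin replicate 2 or combination replicate 2 only 2 did, and without tretinoin replicate 3 or combination replicate 3 only 3 did.

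The interaction asks whether tretinoin changed a gene by a different amount in the presence of vemurafenib than in its absence. By edgeR 0.382% of all genes passed in the positive direction and 0.424% in the negative direction. None of the 13 mitochondrial genes passed, none had an unadjusted p below 0.05, and DESeq2 called none. Their interaction estimates were all negative, from -0.42 (MT-ND5) to -0.03 (MT-ND3) on the log2 scale, with standard errors of 0.19 to 0.30. Their sign rested on 2 libraries: the median was -0.26 over all samples, -0.01 without tretinoin replicate 1, and 0.14 without both tretinoin replicate 1 and combination replicate 1.

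The mean shares of single genes among the 13 were not the same in all groups. MT-CO1 was 24.6% ± 1.22 (SD, n = 3) of the mitochondrial protein-gene counts with DMSO, 24.3% ± 0.418 with tretinoin, 26.9% ± 0.827 with vemurafenib and 28.0% ± 2.32 with the combination. Combination replicate 1 was at 30.67%, against 26.49% and 26.85% in the other combination samples and 25.97% in DMSO replicate 2. MT-CO2 was 8.18% ± 0.448 with DMSO and 9.28% ± 0.0404 with the combination. MT-ND2, a core complex I subunit, took 16.5% ± 0.54 with DMSO, 16.7% ± 0.426 with tretinoin, 15.0% ± 0.529 with vemurafenib and 13.7% ± 1.63 with the combination, the last group again spread by replicate 1 (11.9% against 14.9% and 14.5%). MT-ND3 was 2.88% ± 0.418 of these counts with DMSO and 2.17% to 2.35% as means of the treated groups. These shares are a description and were not tested.

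On a scale per length (normalised count per kilobase of exon that no other gene covers), MT-CO1 and MT-ND2 were the highest members with DMSO, at 743 ± 33.1 and 739.6 ± 86.6 (SD, n = 3), which do not differ beyond their spread. The highest nuclear member was ATP5F1B, the catalytic beta subunit of ATP synthase, at 685 ± 20.6. With the combination MT-CO1 was at 2108 ± 403 and ATP5F1B at 629.9 ± 34.9 per kilobase. The lowest of the 83 nuclear genes tested was NDUFA4L2, at 0.888 per kilobase.

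Mitochondrial genes are packed so tightly that some share bases, and this touched their counts. Fragments lying over 2 genes were assigned to neither. MT-ATP8 and MT-ATP6, 2 subunits of ATP synthase, overlap by 46 bases at chrM:8527-8572 (GRCh38, plus strand), and 21.1% of the coding bases of MT-ATP8 lie in the overlap. MT-ND4L and MT-ND4 overlap by 7 bases, shown with the bases around them at chrM:10740-10786. The sequences are shown because they are where the counts of these genes meet. In the first, capitals mark the start codon of MT-ATP6 and the stop codon of MT-ATP8, and in the second they mark the 7 shared bases.
MT-ATP8/MT-ATP6: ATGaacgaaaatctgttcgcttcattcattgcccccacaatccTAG
MT-ND4L/MT-ND4: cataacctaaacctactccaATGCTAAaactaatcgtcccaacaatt
The shared bases of the second pair open with the start codon of MT-ND4 and close with the stop codon of MT-ND4L. MT-ATP8 had the lowest count of the 13, with a mean of 30.4 with DMSO, and counted 42.4, 45.5 and 47.2 with vemurafenib.

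Other features bear on how these transcripts were counted. Of the 13, 6 of the 13 (MT-CO3, MT-CYB, MT-ND1, MT-ND2, MT-ND3 and MT-ND4) end in the genome without a full stop codon, which the poly(A) tail is known to complete. Of the same genes, 12 are read in the sense of the reference strand and only MT-ND6 is on the other strand. Since counting ignored the strand, RNA from the 2 strands over MT-ND6 cannot be told apart. Near-identical copies in the nuclear genome were found for 5 of the 13 (150 or more bases shared, with identity of 98% or above), all on chromosome 1. The copy of MT-CO1, MTCO1P12, counted 124 with DMSO, 231 with tretinoin, 212 with vemurafenib and 318 with the combination as group means, so the split of reads between MT-CO1 and this copy is uncertain.

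Several other RNAs moved in the same direction. MT-RNR1 and MT-RNR2, the mitochondrial ribosomal RNAs, took 0.204% to 0.213% of counts with DMSO, 0.263% to 0.367% with tretinoin, 0.279% to 0.293% with vemurafenib and 0.338% to 0.411% with the combination. MT-RNR2 rose by 0.31 ± 0.10 (SE, log2, adjusted p 0.0124 by edgeR) with vemurafenib, 0.43 ± 0.10 with tretinoin and 0.77 ± 0.10 with the combination. MT-RNR1 rose by 0.55 ± 0.11 with tretinoin and 0.57 ± 0.11 with the combination but did not pass with vemurafenib, at 0.11 ± 0.11 (adjusted p 0.395 by edgeR). MALAT1 and NEAT1, long noncoding RNAs of the nucleus, changed by 0.56 ± 0.13 and 0.59 ± 0.15 with vemurafenib and 1.15 ± 0.13 and 1.14 ± 0.14 with the combination, past the threshold in both. With tretinoin NEAT1 rose by 0.57 ± 0.15 while MALAT1, at 0.31 ± 0.13, did not pass (adjusted p 0.147 by edgeR). In tretinoin replicate 1, where the mitochondrial share was highest of its group, MALAT1 was the lowest of its group (316 against 481 and 418). That is 1 RNA in 1 library that stood apart, and NEAT1 by sample is not given here. The part of RNA quality or nuclear content in the mitochondrial rise was not tested. Of 9 markers of other cell types, 5 of the 7 with enough counts rose with vemurafenib and 5 with the combination, PTPRC alone rose with tretinoin, CD3E had at most 9 counts in any sample, and the summed level was 30.0 to 34.4 with DMSO, 30.5 to 34.6 with tretinoin, 78.3 to 80.8 with vemurafenib and 66.2 to 73.3 with the combination. The summed range with tretinoin overlapped that with DMSO. The part of these markers in the results with vemurafenib was not tested.

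Among the nuclear genes, vemurafenib raised 2 of the 83 tested (2.41%, against 26.4% of all genes) and lowered 9 (10.8%, against 26.3%). The median log2 fold change was -0.09, against 0.02 for all genes. Of the 4185 genes with the highest mean level, 13.5% rose and 47.4% fell, and of the 60 nuclear members among them 1.67% rose and 15% fell. Without DMSO replicate 2, 5 nuclear genes fell with vemurafenib and 5 with the combination, and 5 also fell with the combination without combination replicate 3. With the combination 3 of 83 rose (3.61%, against 27.1% of all genes) and 8 fell (9.64%, against 26.5%), with a median of -0.02. The median is close to 0 and its sign depended on the fit. Scaled by total counts alone, all genes shifted by 0.19 with vemurafenib and 0.16 with the combination, the nuclear medians became 0.11 and 0.15 (against 0.21 and 0.19 for all genes), and 20 and 24 nuclear genes rose while 2 and 3 fell. With that scaling 39.3% of all genes rose and 15.7% fell with vemurafenib, and 37.3% and 17.4% with the combination.

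**Figure D3:**
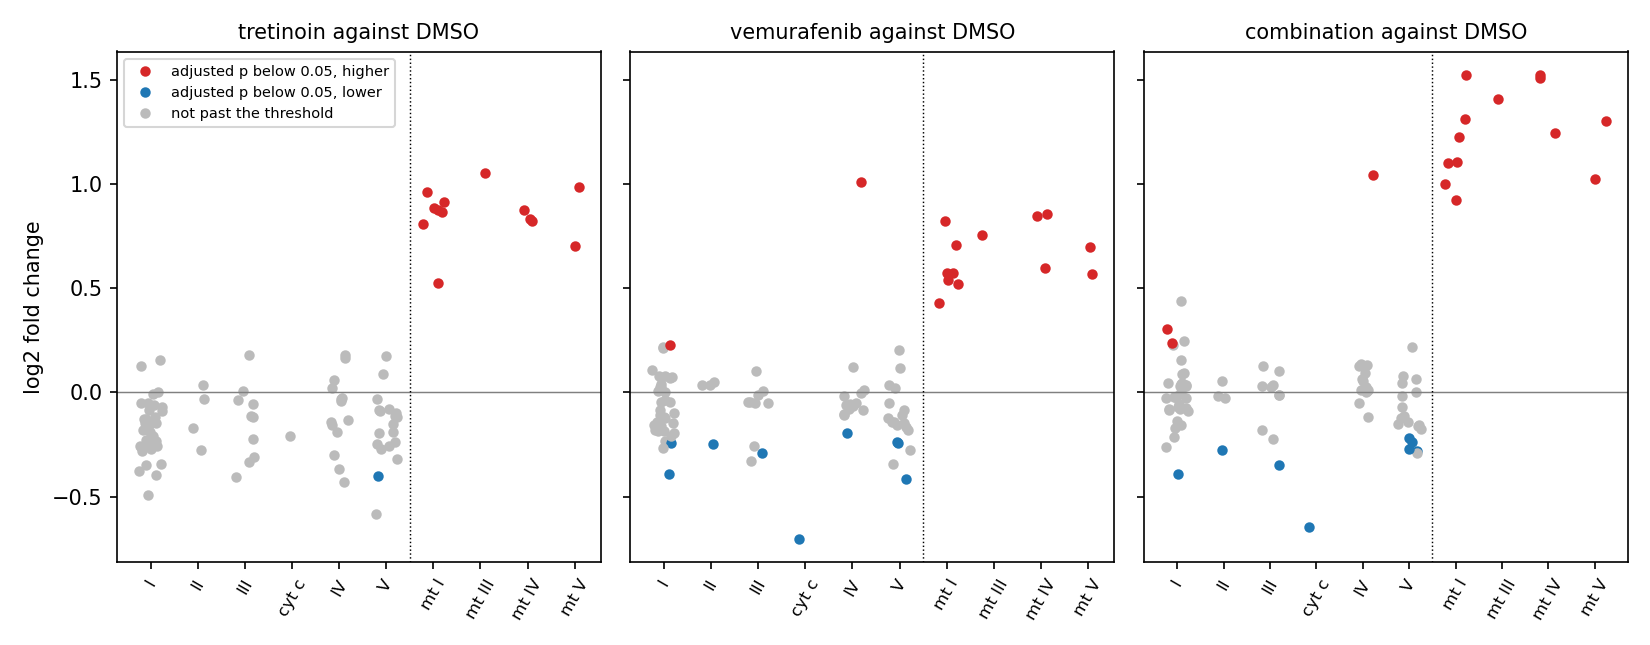
Log2 fold change against DMSO (vertical axis) of the 96 members tested, by complex, with nuclear genes left and mitochondrial genes (mt) right of the dotted line in each panel, each point 1 gene spread sideways at random. Points are red or blue where edgeR's adjusted p was below 0.05; all 13 mitochondrial points are red in each panel, from 0.43 upward, and most nuclear points lie near 0 and are grey, apart from CYCS (-0.70 with vemurafenib, -0.65 with the combination) and NDUFA4L2 (1.01 and 1.04).

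CYCS, which encodes cytochrome c, the carrier between complexes III and IV and a trigger of apoptosis when released, fell most. Its normalised count was 348, 344 and 336 with DMSO, 254, 322 and 314 with tretinoin, 214, 207 and 211 with vemurafenib, and 221, 217 and 218 with the combination. The samples with vemurafenib, alone or combined, were all below the tretinoin samples, which were all below DMSO. The log2 fold change was -0.70 ± 0.08 (SE, adjusted p 7.28e-07 by edgeR) with vemurafenib and -0.65 ± 0.08 (adjusted p 1.8e-06) with the combination. With tretinoin it was -0.21 ± 0.08 and did not pass (adjusted p 0.118).

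In all, 6 nuclear genes fell with both vemurafenib and the combination: CYCS, ATP5F1D, NDUFAB1, UQCRFS1, SDHB and ATP5MC3. The 2 comparisons share the DMSO samples. NDUFAB1, the acyl carrier protein that is also a complex I subunit, counted 179, 194 and 170.3 with DMSO, 132, 136 and 146 with vemurafenib and 144, 135 and 134 with the combination, a change of -0.39 ± 0.08 (SE, log2) in each. UQCRFS1, the Rieske iron-sulfur protein of complex III, counted 169, 187 and 166 with DMSO, 139.6, 138.6 and 148 with vemurafenib and 132, 136 and 141 with the combination, a change of -0.29 ± 0.07 and -0.35 ± 0.07. In both genes all DMSO samples were above all samples with vemurafenib. UQCRFS1 shares 813 bases at 98.9% identity with a processed pseudogene, so its counts may be split.

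ATP5F1D, the delta subunit of the central stalk of ATP synthase, was the only nuclear member that fell with tretinoin alone. It counted 129.5, 150.3 and 125 with DMSO, 80.6, 112 and 113 with tretinoin, 94.7, 98.8 and 109.9 with vemurafenib, and 118, 106 and 108 with the combination. Tretinoin replicate 1 was the lowest of all samples, yet its 2 companions were also below DMSO. The log2 fold change was -0.40 ± 0.11 (SE, adjusted p 0.0379 by edgeR) with tretinoin, -0.42 ± 0.11 (adjusted p 0.00372) with vemurafenib and -0.28 ± 0.11 (adjusted p 0.0348) with the combination. The tretinoin call was lost without tretinoin replicate 1 (-0.26, adjusted p 0.0531) and without any 1 of the DMSO libraries (adjusted p 0.0507 to 0.221). The combination call was lost without DMSO replicate 2, combination replicate 2 or combination replicate 3 (adjusted p 0.0928 to 0.178).

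SDHB, the iron-sulfur subunit of complex II, counted 185, 208 and 178 with DMSO, 155, 158 and 167 with vemurafenib and 151, 161 and 158 with the combination. Its log2 fold change was -0.25 ± 0.07 (SE, adjusted p 0.00824 by edgeR) and -0.28 ± 0.07 (adjusted p 0.00346). The other complex II genes differed little: SDHA (flavoprotein), SDHC and SDHD (membrane anchors) had log2 fold changes of -0.03 to 0.05 in these comparisons and did not pass. Without DMSO replicate 2 the vemurafenib call of SDHB was lost (adjusted p 0.0597). ATP5MC3, 1 of 3 genes for the subunit c ring of ATP synthase, fell by 0.24 in both comparisons, whereas ATP5MC1 and ATP5MC2 lay between -0.12 and -0.02 and did not pass.

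A further 5 nuclear genes fell in only 1 of the comparisons by the threshold, which does not show that the comparisons differ. With vemurafenib these were NDUFS3 (a core complex I subunit, -0.24 ± 0.10), ATP5MG (subunit g of ATP synthase, -0.24 ± 0.09) and COX5A (a structural subunit of complex IV, -0.19 ± 0.07). With the combination they were ATP5PO (the stalk subunit OSCP, -0.27 ± 0.10) and ATP5MD (a small ATP synthase subunit, -0.22 ± 0.08). Each of these 5 calls was lost without at least 3 of the libraries taken singly, DMSO replicate 2 among them, where adjusted p was 0.0675 to 0.237. ATP5PO and ATP5MG share 62.6% and 56.5% of their coding bases with exons of another gene, so part of their fragments was not counted.

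NDUFA4L2 rose most among the nuclear genes. It is a paralogue of NDUFA4, a complex IV subunit, and is known as a gene induced by hypoxia. Its normalised count was low, at 3.03, 2.30 and 2.06 with DMSO and 1.91, 2.79 and 2.41 with tretinoin, and rose to 5.19, 4.67 and 4.93 with vemurafenib and 4.95, 4.46 and 5.70 with the combination. The 6 samples with vemurafenib did not overlap the 6 without it. The log2 fold change was 1.01 ± 0.19 (SE, adjusted p 0.000199 by edgeR) with vemurafenib and 1.04 ± 0.18 (adjusted p 0.000123) with the combination. On the scale per length NDUFA4L2 stayed far below NDUFA4, at 1.78 against 28.8 per kilobase with vemurafenib, and NDUFA4 itself did not pass (0.12 ± 0.08).

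NDUFB5, an accessory subunit of complex I, rose with the combination only by the threshold, by 0.30 ± 0.09 (SE, log2, adjusted p 0.00718 by edgeR), with 0.21 ± 0.09 (adjusted p 0.0509) for vemurafenib. Its combination call was lost without DMSO replicate 3 (adjusted p 0.066).

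**Figure D4:**
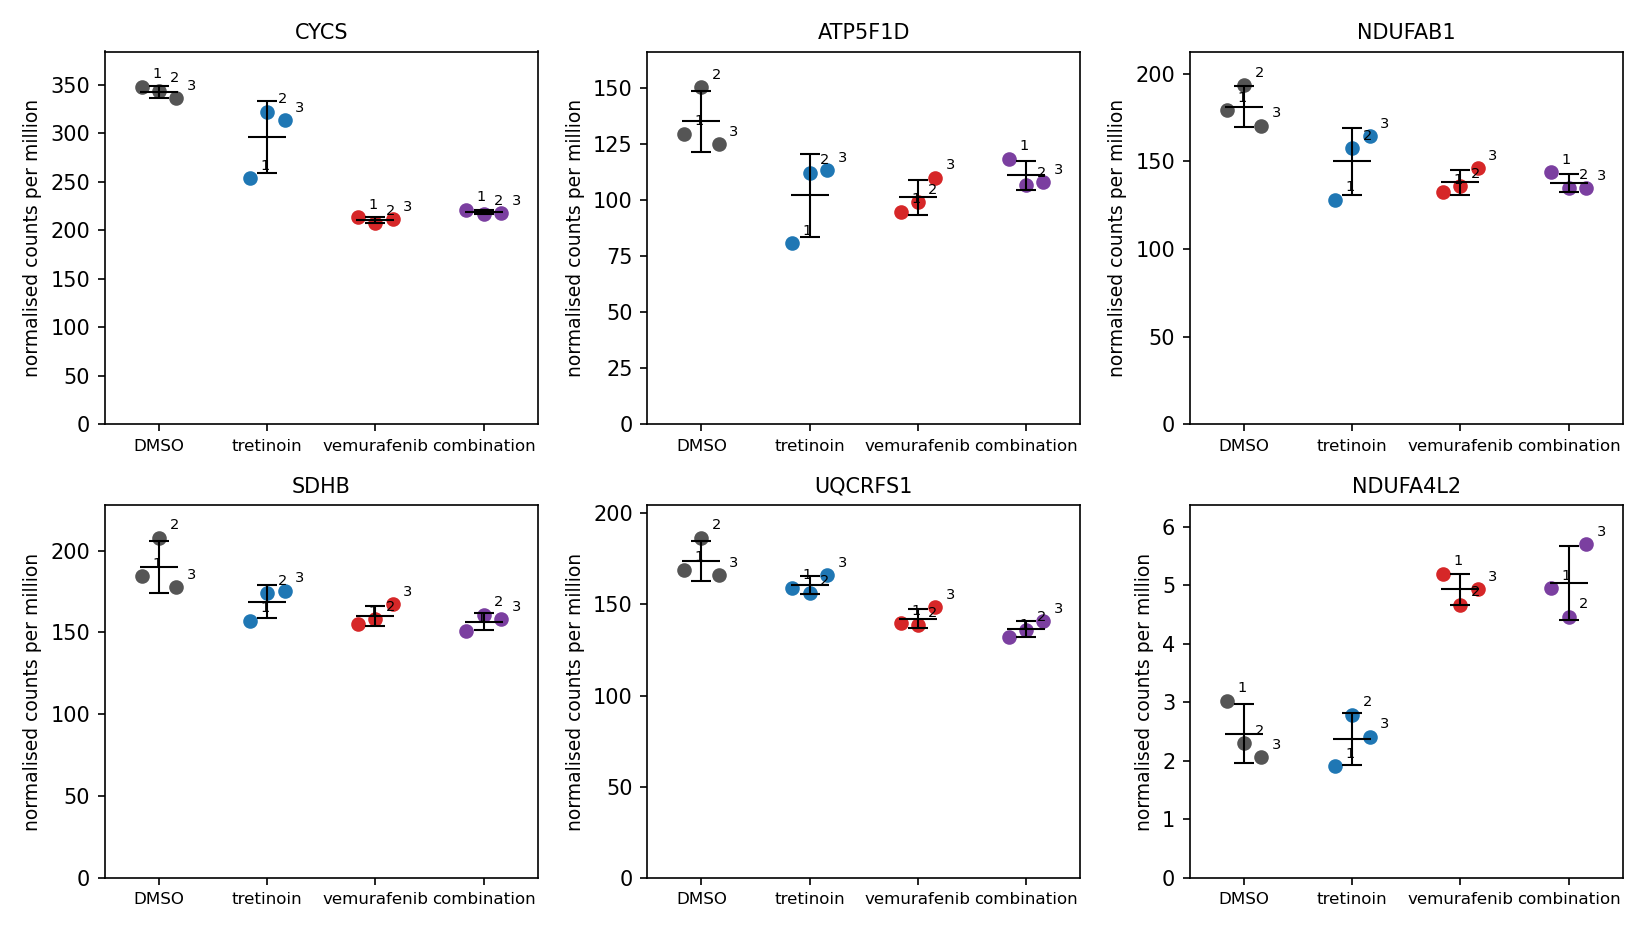
Normalised counts (CPM, vertical axes, from 0) of 6 nuclear genes in each sample, numbered by replicate, with the mean and SD of each group of 3 in black. CYCS, ATP5F1D, NDUFAB1, SDHB and UQCRFS1 lie lower, and NDUFA4L2 higher, in the vemurafenib and combination samples than in DMSO without overlap.

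The core and catalytic nuclear subunits were followed as a fixed list of 22 genes, 21 of which were tested. With vemurafenib 1 rose and 5 fell (NDUFS3, SDHB, UQCRFS1, CYCS and COX5A), where 26.4% of all genes rose and 26.3% fell. The falling share of the list was thus near that of all genes. The other 15 had log2 fold changes of -0.14 to 0.10. They include NDUFS1 and NDUFV1, which carry the first redox centres of complex I, UQCRC1 and UQCRC2, the core proteins of complex III, CYC1, its cytochrome c1, and the alpha, beta and gamma genes of ATP synthase (ATP5F1A, ATP5F1B and ATP5F1C). ATP5F1B, the most highly expressed nuclear member per length, had -0.11 ± 0.07 (SE) with vemurafenib and -0.12 ± 0.07 with the combination. By complex, the nuclear genes that rose or fell with vemurafenib were 1 and 2 of 35 for complex I (2.86% and 5.71%) and 0 and 1 of 4 for complex II (0% and 25%). They were 0 and 1 of 10 for complex III (0% and 10%) and 1 and 1 of 14 for complex IV (7.14% each). For complex V they were 0 and 3 of 19 (0% and 15.8%), beside the same 26.4% and 26.3% of all genes.

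For tretinoin, no nuclear member rose by edgeR or DESeq2, and 1 had an unadjusted p below 0.05 in that direction. In the other direction 1 fell by edgeR and 4 by DESeq2, with 32 below an unadjusted p of 0.05. By edgeR 3.48% of all genes rose and 2.2% fell. How many of all genes lay below an unadjusted p of 0.05 was not counted. The nuclear median was -0.15, against 0.01 for all genes. COX4I1 and COX5B are nuclear subunits of complex IV. COX4I1 counted 515, 561 and 447 with DMSO and 261, 455 and 464 with tretinoin, and COX5B 161, 171 and 141 with DMSO and 78.4, 135 and 136 with tretinoin. Tretinoin replicate 1 was far below its companions in both genes, and neither passed (-0.37 ± 0.15 and -0.43 ± 0.14). Without tretinoin replicate 1 the nuclear median was -0.10 and none passed, and without tretinoin replicate 3 it was -0.22 and 11 fell. In the latter fit 656 of all 17151 genes fell.

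Between the combination and vemurafenib alone, no nuclear member passed by edgeR or DESeq2, and NDUFA3 alone (chosen after its values were seen) had an unadjusted p below 0.05, at 0.20 ± 0.08. The nuclear median was 0.05. Relative to tretinoin alone, 18 of 83 rose with the combination (21.7%, against 24.1% of all genes) and 2 fell (2.41%, against 25%). The 2 that fell were CYCS (-0.44 ± 0.08) and UQCRFS1 (-0.24 ± 0.07), and NDUFA4L2 rose most (1.07 ± 0.18). Complex I held 10 of the 18, which is 28.6% of its 35 genes tested, and complex IV 5, which is 35.7% of its 14. The share for complex I is near the 24.1% of all genes. Without tretinoin replicate 1 the 18 became 11, without combination replicate 1 they became 10, and without tretinoin replicate 3 they became 30. No nuclear member passed for the interaction by edgeR or DESeq2, although 24 had an unadjusted p below 0.05, all positive. ATP5F1D had the smallest (0.53 ± 0.15, adjusted p 0.126 by edgeR). The share of all genes below an unadjusted p of 0.05 was not counted. The nuclear median for the interaction was 0.20, against -0.01 for all genes. It was 0.14 without tretinoin replicate 1 and 0.11 without both tretinoin replicate 1 and combination replicate 1.

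Several complex IV subunits exist as tissue isoforms, and A375 cells used the common forms. COX4I1 stood at 106 ± 12.1 per kilobase with DMSO (SD, n = 3), and its lung isoform COX4I2 had no count in any sample. The muscle isoforms COX6A2 and COX7A1 had at most 1 and 6 counts in a sample, and COX6B2 and COX8C, known from testis, at most 6 and 2, although all coding bases of COX6B2 lie in exons of another gene. COX7B2 was detected at a low level, 2.84 per kilobase against 25.8 for COX7B, and passed in no comparison with DMSO. ATP5IF1, the inhibitor of the hydrolytic action of ATP synthase, counted 72.2 ± 5.8 with DMSO and 78.1 with vemurafenib and did not pass (0.11 ± 0.14).

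The other nuclear genes that were not tested were NDUFV2, NDUFA7 and ATP5MGL. NDUFV2, a core subunit of complex I, had at most 12 counts in a sample, and 84.7% of its coding bases lie in exons of AP005263.1. NDUFA7 had at most 9 counts, and 78.3% of its coding bases lie in exons of AC010323.1 or RPS28. ATP5MGL had at most 2 counts. Among the tested genes, UQCR11, NDUFB8 and NDUFC2 share 100%, 85.2% and 76.9% of their coding bases with another gene, and fragments lying over both genes were not counted.

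The promoters of the genes that led the nuclear changes are shown because nuclear subunit genes are known to share binding sites for NRF1, ETS-family factors (GABPA) and YY1. Sequences were taken from RefSeq (GRCh38.p14), 250 bases before to 50 after the start of transcription, and 72 of the 91 nuclear members matched, with 86 promoters. The letters searched, on both strands, were GCGCATGC for NRF1, CCGGAAG for ETS, AAGATGG for YY1 and ACGTG for the hypoxia response element. They were held by 18.6%, 25.6%, 22.1% and 23.3% of the members' promoters and by 3.05%, 10.3%, 5.84% and 21.4% of all 35116 promoters. Capitals mark these letters or their reverse complement, and the marked runs do not overlap. CYCS lies at chr7:25125211-25125510, SDHB at chr1:17053983-17054282 and NDUFA4L2 at chr12:57240695-57240994, all on the minus strand.
CYCS: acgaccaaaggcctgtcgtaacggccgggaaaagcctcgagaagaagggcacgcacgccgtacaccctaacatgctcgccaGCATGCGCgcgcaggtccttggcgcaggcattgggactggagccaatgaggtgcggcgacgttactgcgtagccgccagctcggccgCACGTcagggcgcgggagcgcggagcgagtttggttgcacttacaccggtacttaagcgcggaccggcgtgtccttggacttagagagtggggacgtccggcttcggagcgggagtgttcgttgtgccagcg
SDHB: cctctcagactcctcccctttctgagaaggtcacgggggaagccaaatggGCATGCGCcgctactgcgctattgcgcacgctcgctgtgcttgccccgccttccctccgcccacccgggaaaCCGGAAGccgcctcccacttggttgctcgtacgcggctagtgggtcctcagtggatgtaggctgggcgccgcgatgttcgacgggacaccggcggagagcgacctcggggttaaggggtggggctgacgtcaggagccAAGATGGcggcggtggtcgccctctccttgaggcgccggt
NDUFA4L2: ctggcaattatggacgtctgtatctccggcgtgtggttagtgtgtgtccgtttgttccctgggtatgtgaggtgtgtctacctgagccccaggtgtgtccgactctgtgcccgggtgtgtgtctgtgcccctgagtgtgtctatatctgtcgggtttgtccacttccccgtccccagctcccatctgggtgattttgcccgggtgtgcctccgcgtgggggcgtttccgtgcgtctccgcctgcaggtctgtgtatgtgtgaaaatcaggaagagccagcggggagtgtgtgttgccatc
CYCS held the NRF1 letters and the hypoxia letters once each, SDHB held the NRF1, ETS and YY1 letters, and NDUFA4L2 held none of the 4 in this window. A match describes the letters and is not a measured binding site. Of the 9 promoters of genes that fell with vemurafenib or the combination, 2 held the NRF1 letters, 4 the ETS letters and 3 the YY1 letters. ATP5F1D, ATP5MC3 and NDUFB5 are named only.

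Other nuclear genes of the mitochondrion were followed as lists, beside 26.4% of all genes that rose and 26.3% that fell with vemurafenib, and 27.1% and 26.5% with the combination. Of the 4185 genes with the highest mean level, 13.5% rose and 47.4% fell with vemurafenib, and 14.3% and 47.2% with the combination. How many genes of these lists lie among those 4185 was not counted. With vemurafenib 1 of 78 mitochondrial ribosomal protein genes rose (1.28%) and 42 fell (53.8%). The 3 smallest p belonged to MRPS30 (-0.82 ± 0.06, SE), MRPS12 (-0.81 ± 0.08) and MRPS2 (-0.78 ± 0.08). With the combination 4 rose (5.13%) and 39 fell (50%), so both falling shares lay nearer those of the highly expressed genes than those of all genes. Their median log2 fold change was -0.29 with vemurafenib and -0.22 with the combination. These ribosomes translate the 13 mitochondrial messages that rose.

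Of 23 genes that transcribe or maintain mitochondrial DNA and its RNA, vemurafenib raised 1 (4.35%) and lowered 16 (69.6%). The combination raised 1 (4.35%) and lowered 14 (60.9%). Of the 4185 genes with the highest mean level, 47.4% and 47.2% fell in these comparisons. TFAM, which packages mitochondrial DNA and starts its transcription, counted 111, 108 and 115 with DMSO, 97.7, 110.02 and 105 with tretinoin, 72.9, 78.2 and 70.5 with vemurafenib, and 73.5, 69.1 and 70.4 with the combination. It fell by 0.59 ± 0.07 (SE, log2, adjusted p 9.87e-07 by edgeR) with vemurafenib and by 0.65 ± 0.07 with the combination, and was -0.10 ± 0.07 with tretinoin (adjusted p 0.41). TFB2M, the transcription factor that opens mitochondrial promoters, TWNK, the helicase of mitochondrial DNA, and PNPT1, a nuclease of mitochondrial RNA, changed by -0.83 ± 0.08, -0.85 ± 0.07 and -0.84 ± 0.07 with vemurafenib. POLRMT, the mitochondrial RNA polymerase (named after its values were seen), changed by -0.43 ± 0.07.

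Assembly factors build the complexes but are not part of them. Of 47 tested, 5 were raised and 18 lowered by vemurafenib, and 10 were raised and 15 lowered by the combination. These are 10.6% and 38.3% with vemurafenib and 21.3% and 31.9% with the combination, the latter near the shares of all genes (27.1% and 26.5%). NDUFAF4, needed for complex I, fell by 1.18 ± 0.09 (SE, log2), COA7, needed for complex IV, by 0.89 ± 0.07, and TMEM70, needed for ATP synthase, by 0.81 ± 0.09 with vemurafenib. Among 16 genes of the citric acid cycle and pyruvate dehydrogenase, 2 rose (12.5%) and 4 fell (25%) in each comparison, the falling share being near that of all genes (26.3% and 26.5%). With vemurafenib IDH3A changed by -0.45 ± 0.09 and DLD by 0.29 ± 0.06.

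Regulators known to act on the nuclear subunit genes were lower in 7 and higher in 2 of 12 cases with vemurafenib, and lower in 7 and higher in 1 with the combination. MYC fell by 3.69 ± 0.09 (SE, log2, adjusted p 4.05e-15 by edgeR) with vemurafenib, and the coactivators PPARGC1B and PPRC1 by 1.48 ± 0.11 and 0.98 ± 0.08. ESRRA, the estrogen-related receptor alpha, fell by 0.80 ± 0.10. MITF rose by 0.88 ± 0.10 with vemurafenib and 0.64 ± 0.10 with the combination. PPARGC1A (named after its values were seen) was near the detection limit, with at most 18 counts in a sample, and at 1.06 ± 0.58 did not pass (adjusted p 0.139). With tretinoin alone, 1 gene rose and 3 fell over the 5 lists together, of 176 tested, where 3.48% of all genes rose and 2.2% fell.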

How the data were processed

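For each of the 12 samples the authors deposited unnormalised counts, the fragments assigned to each gene. Per the labels and the study's methods, poly(A)-selected, strand-specific libraries were aligned with STAR 2.5.3a to GRCh38.p10 and counted on GENCODE 27 exons in union mode with strand ignored. Fragments over exons of 2 genes are thus lost in every sample, on either strand. Symbols, biotypes and positions came from GENCODE 29 (58084 of 58347 identifiers found).

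Groups were taken from the sample labels. All 12 samples entered a single edgeR 4.0.16 quasi-likelihood fit (R 4.3.3, filterByExpr by group, TMM scaling, 1 term per group). Each treatment was compared with DMSO and the combination with either drug alone, and the interaction was tested. P-values were adjusted by Benjamini-Hochberg over 16740 genes, with a threshold of 0.05. The standard error is the fold change divided by the square root of F. Scripts were tested on simulated data. DESeq2 1.42.0, other scalings, no filter, 2 groups alone, a replicate block and single libraries left out were alternatives. Leaving out the 2 libraries that stood apart was added after seeing the data. Copies were sought with blastn 2.17.0.

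The members, gene lists and motifs were chosen with earlier results of these data known. Genes named with values are the mitochondrial genes, core subunits, isoform sets, up to 8 nuclear members with the largest rise and fall in vemurafenib and in the combination against DMSO (groups not overlapping), those past the threshold in the other comparisons, and up to 6 per further list by smallest p. Total counts per sample were 13510235 to 21534377, and standard errors were largest for genes with few counts. Values of some genes that this rule would name are not reported here, though they remain in the counts.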

Additional observations from a re-analysis of the deposited data

How the results depend on the processing

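The rise of all 13 mitochondrial genes in each treatment against DMSO kept its direction in every alternative run. Scaling by total counts alone gave, for nuclear genes, 20 rising and 2 falling with vemurafenib, 24 and 3 with the combination, 0 falling with tretinoin, and 39 rising and 1 falling for the combination against tretinoin, with COX5A reversed at 0.0017 (log2) with vemurafenib. Of all genes, 39.3% then rose and 15.7% fell with vemurafenib, and 37.3% and 17.4% with the combination. These shares were 4.53% and 1.04% with tretinoin, and 30.2% and 19.5% for the combination against tretinoin. Without the low-count filter 1 nuclear gene rose and 14 fell with vemurafenib, 17 fell with tretinoin, 11 rose for the interaction, and 13 and 11 mitochondrial genes rose for the combination against vemurafenib and against tretinoin. Of all 41806 genes then tested, 4182 rose and 4359 fell with vemurafenib, 804 fell with tretinoin, and 389 rose for the interaction. For the combination 410 rose against vemurafenib and 4110 against tretinoin. Fitting only the 2 groups compared gave 20 nuclear genes falling with vemurafenib, 5 rising with the combination, 0 falling with tretinoin and 11 rising against tretinoin, and 13 and 3 mitochondrial genes rising against vemurafenib and against tretinoin. Over all genes in these fits, 4709 of 15705 fell with vemurafenib, 4804 of 16011 rose with the combination, and 71 of 15163 fell with tretinoin. For the combination, 584 of 16320 rose against vemurafenib and 3644 of 16061 against tretinoin. DESeq2 gave 4 nuclear genes falling with tretinoin, where 668 of all 15616 genes fell. The causes of these shifts were not tested.

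With tretinoin replicate 1 and combination replicate 1 both left out, 8 nuclear genes rose and 15 fell with the combination, 10 rose and 4 fell against tretinoin, and 13 mitochondrial genes rose against vemurafenib and 13 against tretinoin. Of all 17040 genes in that fit, 4800 rose and 4694 fell with the combination. Against tretinoin 3844 rose and 4110 fell, and against vemurafenib 569 rose and 542 fell. With each single library left out, the nuclear genes rising and falling numbered 1 to 3 and 5 to 12 with vemurafenib, 1 to 4 and 5 to 9 with the combination, 0 and 0 to 11 with tretinoin, and 10 to 30 and 2 to 5 against tretinoin. Over all genes (17077 to 17206 tested), 3797 to 4107 rose and 3917 to 4219 fell with vemurafenib. With the combination 3923 to 4173 rose and 4004 to 4242 fell, and with tretinoin 273 to 711 and 106 to 656. Against tretinoin 3487 to 4009 rose and 3818 to 4271 fell, and against vemurafenib 254 to 343 rose. Mitochondrial genes rising numbered 11 to 13 with vemurafenib, 6 to 13 with tretinoin, 1 to 12 against vemurafenib and 2 to 12 against tretinoin. The vemurafenib share was 0.854% of protein-coding counts.

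Replicate numbers did not pair the samples: deviations from the group mean correlated at -0.143 to 0.087 over 18 pairs of equal number. With the replicate block 0 nuclear genes fell with tretinoin, and no other count over the members moved by more than 1.5 times. Over 53 named genes and all alternatives, 4401 of 4664 values kept their side of the threshold, 137 lost and 125 gained a call, and 1 reversed. Direction was compared only for values past the threshold in the main fit. Values short of it may have changed sign and still count among the 4401. Depth limits the isoforms and PPARGC1A, and relative counts cannot show a change in total RNA.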
